A study of Bos taurus with 16 samples.

Results

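Small noncoding RNAs of 110 to 200 bp were followed in whole blood of 16 crossbred beef steers. The set held 51 of the 27607 genes in the deposited tables. Members were selected on measured values, because the tables list no gene type. A gene was taken when its Ensembl identifier number lay between 42000 and 45999, the older noncoding block, and outside 43540 to 43590. Its length also had to be 110 to 200 bp, and it needed at least 10 counts in at least 8 steers. The length was recovered from the deposited normalized counts and FPKM, and was whole to within 3.13e-10 bp for every gene with a count. The count minimum does not use the groups, but both the level and the length of the members were fixed by this choice and are given here as descriptions.

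Blood came from 8 steers labelled high residual feed intake (RFI) and 8 labelled low, 1 library per steer. They are called high-RFI and low-RFI steers below. A steer of high RFI takes in more feed than its weight and gain call for. Both groups were the extremes of a larger set of steers fed 1 high-forage ration and stayed on it. Each library came from blood of 3 days mixed per steer and was made with removal of ribosomal and globin RNA. Counts on genes ran from 4.80 to 12.2 M per steer. The titles start with HFE for steers labelled high and with LFE for those labelled low, letters the labels do not spell out. The read numbers listed per library in the study's supplement follow the counts only when its group names are exchanged, so every direction below is that of the labels and would turn round under those names. The sire, pen and library batch of each steer were not used here.

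Several kinds of stable nuclear RNA fall in this range of size. H/ACA small nucleolar RNAs (snoRNAs) pair with ribosomal or spliceosomal RNA and guide the enzyme that turns uridine into pseudouridine, and many are cut out of introns of other genes. Many small nuclear RNAs (snRNAs) of this size form the core of the spliceosome, which removes introns from messenger RNA. In mammals circulating red cells have no nucleus, so such RNA in blood is usually ascribed to white cells. In bulk blood, fewer cells of a type and less RNA per cell cannot be told apart.

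The files pair no identifier with a symbol, and 0 identifiers were found in the RefSeq table of ARS-UCD2.0. Members are therefore given by identifier and length, and their class was checked by length alone. RefSeq lists 806 genes of 110 to 200 bp in that assembly, of which 331 are snoRNAs, 172 snRNAs and 237 pseudogenes. Of the 51 members, 24 had a length at which RefSeq lists snoRNAs and no snRNA, 4 a length with snRNAs and no snoRNA, 22 a length with both, and 1 a length with neither. The first group included all 4 members of 135 bp and all 4 of 136 bp. The second group were the members of 165, 190, 191 and 198 bp. A shared length does not identify a gene. Whole blood itself could not be checked against cell markers without symbols.

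The block held 2164 genes, of which 931 had a count and thus a length, and 295 of these were 110 to 200 bp. Of the 295, 244 fell short of the count minimum, and 215 of these never reached 10 counts in any steer. Among the 51 members, 23 had at least 10 counts in all 16 steers, 12 in 15 steers and 16 in 8 to 14 steers. None passed through 1 group alone, since at least 3 steers of each group reached the minimum for each member. The member at the lower edge of length, ENSBTAG00000042579 of 110 bp, had 16.2 ± 5.25 normalized counts (SD, n = 16), and the nearest gene outside, of 104 bp, had 12.9 ± 5.64. At the upper edge, ENSBTAG00000042256 of 200 bp had 13.9 ± 4.75, and the nearest gene outside, of 204 bp, had 11.1 ± 4.51. ENSBTAG00000045497 of 198 bp, the 1 member at the minimum in exactly 8 steers, had 8.62 ± 2.90 normalized counts. The 4 genes that reached it in 7 steers had means between 8.26 and 9.46.

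Lengths clustered, with 31 of the 51 members from 130 to under 150 bp and a median of 136 bp. The level per length, as FPKM averaged over the 16 steers, had a median of 30.1 over the members and ran from 5.26 to 512. The median over all genes with the same count minimum was 9.91 FPKM. The same count gives a higher FPKM on a shorter gene, and the 13215 other genes tested had a median length of 2375 bp. The limits on counts and length thus set part of this difference. These levels are those of the libraries. How well RNA of this size was kept in extraction (RNeasy Protect Animal Blood kit) and library preparation was not tested. By length, the median was 28.9 FPKM for the 10 members of 110 to under 130 bp, 30.1 for the 31 of 130 to under 150 bp and 50.1 for the 10 of 150 to 200 bp. These ranges overlapped widely, from 10.5 to 512, from 9.89 to 146 and from 5.26 to 151.

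ENSBTAG00000042626, of 126 bp, was the most abundant member at 512 ± 171 FPKM (SD, n = 16). At this length RefSeq lists 14 snoRNAs and 21 snRNAs, so the length leaves its class undecided. It took 15.6 ± 2.34% of all counts on members (SD, n = 16), from 11.4% to 19.3%. Next in level per length was ENSBTAG00000043158, of 114 bp, at 171 ± 36.6 FPKM. It was followed by ENSBTAG00000045620 of 190 bp at 151 ± 54.2 FPKM and by ENSBTAG00000045293 of 145 bp at 146 ± 34.9 FPKM. ENSBTAG00000042135 of 135 bp had 144 ± 31.4 FPKM, ENSBTAG00000045156 of 145 bp 144 ± 34.7 FPKM, ENSBTAG00000042836 of 135 bp a mean of 143 FPKM and ENSBTAG00000043747 of 188 bp 125 ± 41.6 FPKM. From the 114 bp gene to the 188 bp gene, neighbours in this order lay within the spread between steers. The gap from the 126 bp gene to the next was larger than the spread of either. The 10 members with most normalized counts together held 60.3% of the 55334 counts on members.

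**Figure D1:**
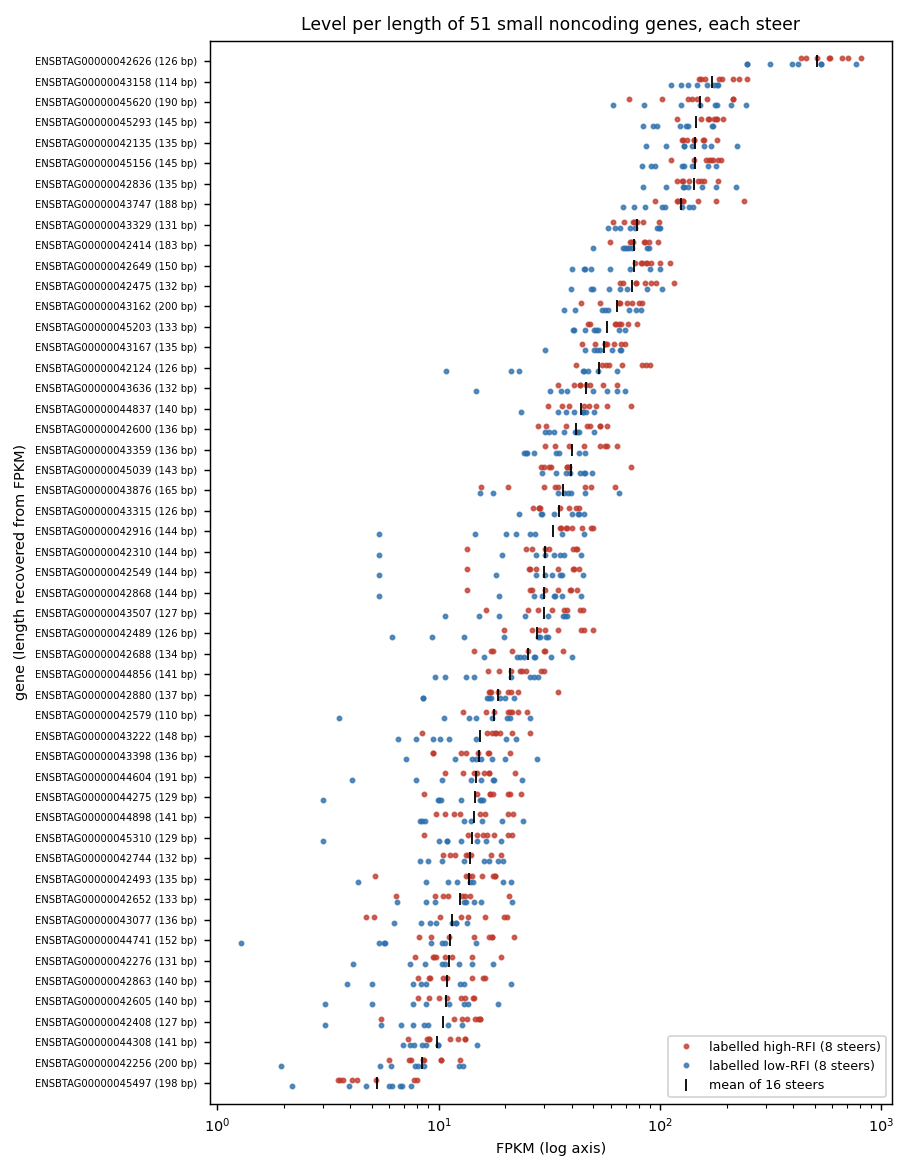
Level per length (FPKM, log axis) of the 51 members in each steer, ordered by the mean over 16 steers (black mark), with high-RFI steers in red and low-RFI in blue. The member of 126 bp at the top averages 512 FPKM and the member of 198 bp at the bottom 5.26, and the points of both groups overlap in every row.

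Some members were not separate measurements. Counts of 63 pairs of block genes with the same length, at least 100 counts each and at least 1 member, were compared over the steers by chi-square. In 7 pairs the chi-square per degree of freedom was between 0.0218 and 0.115, far under the 1 that independent reads in fixed proportion would average. The next pair stood at 0.426 and the median pair at 1.24. These 7 pairs formed 5 sets with 11 members. The members of each set also had near-equal totals. ENSBTAG00000042310, ENSBTAG00000042549 and ENSBTAG00000042868, all of 144 bp, had totals of 612, 609 and 606 counts and differed by at most 3 counts in any steer. ENSBTAG00000045293 and ENSBTAG00000045156, of 145 bp, had totals of 2883 and 2846. ENSBTAG00000042135 and ENSBTAG00000042836, of 135 bp, had 2667 and 2640. The other sets were a pair of 140 bp, with 205 and 207 counts, and a pair of 129 bp, with 257 and 252. Whether the same reads were counted for each gene of a set was not tested, since the tables hold no reads. With each set counted once, 45 of the 51 members remained. Whether all of these were distinct signals was not tested.

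**Figure D2:**
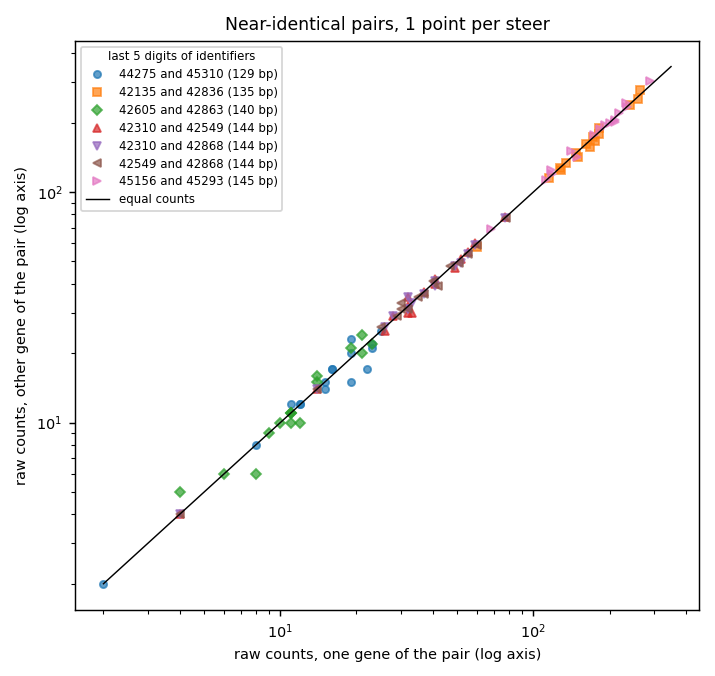
Raw counts of the 7 near-identical pairs, 1 gene on each axis (both log), 1 point per steer, with the line of equal counts. The points lie along the line from the smallest counts to the largest, and the 3 genes of 144 bp differ by at most 3 counts in any steer.

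Steers differed widely in the share of counts that fell on the 51 members together. This share was 0.0405 ± 0.00831% of all counts on genes (SD, n = 16). Steer 4, a low-RFI steer, had the lowest share at 0.0243% (95% Wilson interval 0.0229 to 0.0257%), and steer 5, also low-RFI, the next at 0.0267% (0.0257 to 0.0278%). The highest were steer 10, a high-RFI steer, at 0.0528% (0.0512 to 0.0545%) and steer 7, a low-RFI steer, at 0.0525% (0.0509 to 0.0541%). The intervals cover counting error only and take each count as a separate read, which may not hold in the near-identical sets. The lowest and highest steers lay well outside each other's intervals.

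Over the high-RFI steers the share was 0.0434 ± 0.00607% (SD, n = 8), with a lowest of 0.0354, a median of 0.0426 and a highest of 0.0528%. Over the low-RFI steers it was 0.0375 ± 0.00956% (SD, n = 8), with a lowest of 0.0243, a median of 0.0373 and a highest of 0.0525%. The ratio of the group means was 1.16. The ranges overlapped, and the lower end of the low-RFI range was set by steers 4 and 5, without which the ratio was 1.05. Leaving out these 2 steers was chosen after the values had been seen.

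The shorter genes of the same block, 22 genes of 60 to under 110 bp with the same count minimum, held 0.00571 ± 0.000966% of counts (SD, n = 16). Their share was 0.00616 ± 0.000442% in high-RFI steers and 0.00526 ± 0.00116% in low-RFI steers (SD, n = 8 each). Steer 5 was lowest in them and second lowest in the members, and steer 7 highest in them and second highest in the members. Steer 4, lowest in the members, ranked 4 from the bottom in the shorter genes.

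**Figure D3:**
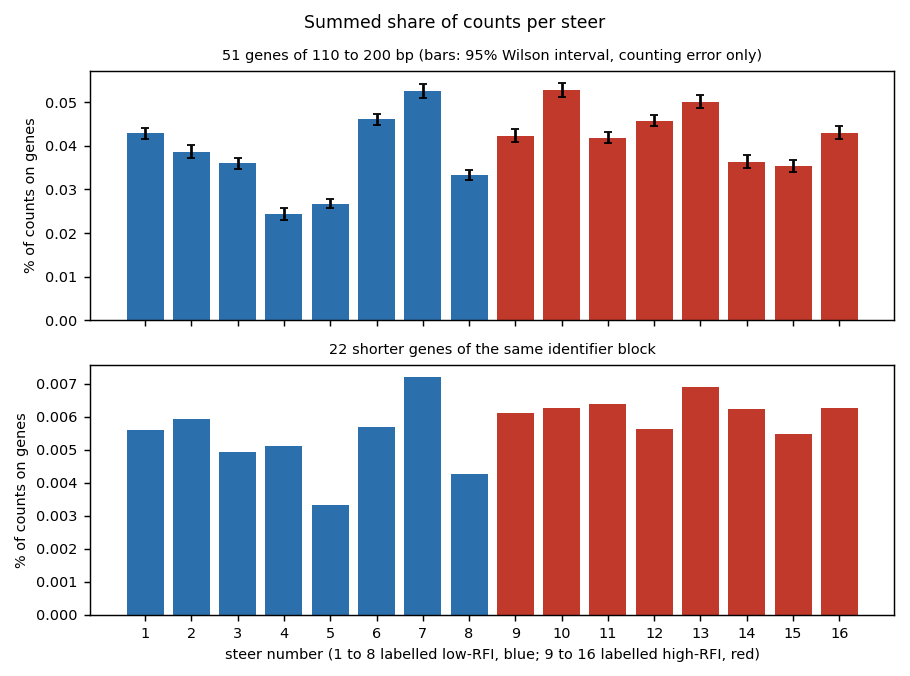
Percent of all counts on genes that fell on the 51 members (top, with 95% Wilson intervals) and on the 22 shorter genes of the block (bottom) in each steer, low-RFI in blue and high-RFI in red. The top bars run from 0.0243% in steer 4 to 0.0528% in steer 10, and the bottom bars from 0.00333% in steer 5 to 0.00721% in steer 7.

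The low share of steer 4 came from most of the members and not from a few abundant ones. Its normalized count was the lowest of the 16 steers in 34 of the 51 members, or 66.7%, against 10.1% of the 13380 genes with the same count minimum. Steer 5 had the lowest value in 6 members, or 11.8%, against 7.40% of those genes. Steer 10 had the highest value in 14 members, or 27.5%, against 4.04% of those genes, and steer 7 in 11, or 21.6%, against 5.14%.

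The deviations of some steers were also seen in other short genes, and those of others were not. On the scale of log2 CPM (counts scaled to library size) less the mean of each gene over the steers, the median deviation of steer 4 was -0.84 over the 50 members tested. It was -0.62 over the 76 other genes of 110 to 200 bp that were tested, -0.27 over 276 genes of over 200 to 400 bp, -0.14 over 1159 genes of over 400 to 1000 bp and 0.01 over 11672 longer genes. Steer 5 stood at -0.39 over the members, -0.31 over the other genes of their length and 0.01 over the longest. Steer 10 stood at 0.47, 0.46 and 0.01, but at -0.04 over 32 genes of 60 to under 110 bp and -0.02 over the genes of over 200 to 400 bp. Steer 8, a low-RFI steer, had a median of -0.27 over the members and 0.19 over the other genes of their length. Steer 14, a high-RFI steer, had a median of -0.15 over the members, -0.24 over the other genes of that length and 0.42 over the 32 genes of 60 to under 110 bp. Steer 4 also had the fewest counts on genes, 4.80 M. The part of depth, of RNA quality and of library preparation in these deviations was not tested.

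Members moved together from steer to steer. After the group means had been taken out, the median Pearson correlation across the 16 steers was 0.573 over pairs of the 10 members with a mean of at least 100 counts, against -0.000642 over pairs of the 8488 genes tested with such a mean. Over all 50 members tested it was 0.494, and 0.480 with each set of near-identical genes counted once, against -0.00232 over all 13265 genes tested. Among the 1225 pairs of members, 93.7% had a correlation above 0, against 49.7% of the pairs of all genes. Over the 21 shorter genes tested the median was 0.274. All pairs share the same libraries and their scaling, so these values are descriptions. The 126 bp gene had the highest median correlation with the other members, 0.653, and 39 of the 50 were above 0.4.

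Genes outside the set that followed the mean deviation of the members most closely were often short as well. Of the 100 with the highest correlation, from 0.704 to 0.889, 47 were under 400 bp, against 2.91% of the 13215 other genes tested. The closest was ENSBTAG00000043898, of 314 bp, with a correlation of 0.889 over the 16 steers. Of these 100 genes, 4 belonged to the shorter class of the block, of which 21 genes were among the 13215.

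A few members stood apart, and these were picked out after their values had been seen. ENSBTAG00000045039, of 143 bp, had a median correlation of -0.0270 with the other members. Its normalized counts were 34.2, 41.5 and 87.3 in high-RFI steers (lowest, median and highest) and 34.7, 48.9 and 58.5 in low-RFI steers. The highest value was that of steer 14, whose median deviation over the members tested was -0.15. Steer 4 had 51.5, above the median of its group. ENSBTAG00000043876, of 165 bp, and ENSBTAG00000045620, of 190 bp, were tied more closely to each other than to the rest, with a correlation of 0.965, the highest outside the near-identical sets. RefSeq lists 4 snRNAs at 165 bp and 1 at 190 bp, and no snoRNA at either length, which does not give the class of these genes. In steer 16, a high-RFI steer, they had 21.2 and 114 normalized counts, the lowest of that group in each. The median deviation of this steer over the members tested was 0.28. ENSBTAG00000044604 of 191 bp, also at a length with snRNAs and no snoRNA, was not low in steer 16. It had 23.6 normalized counts there, near its median of 24.4 over the high-RFI steers.

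**Figure D4:**
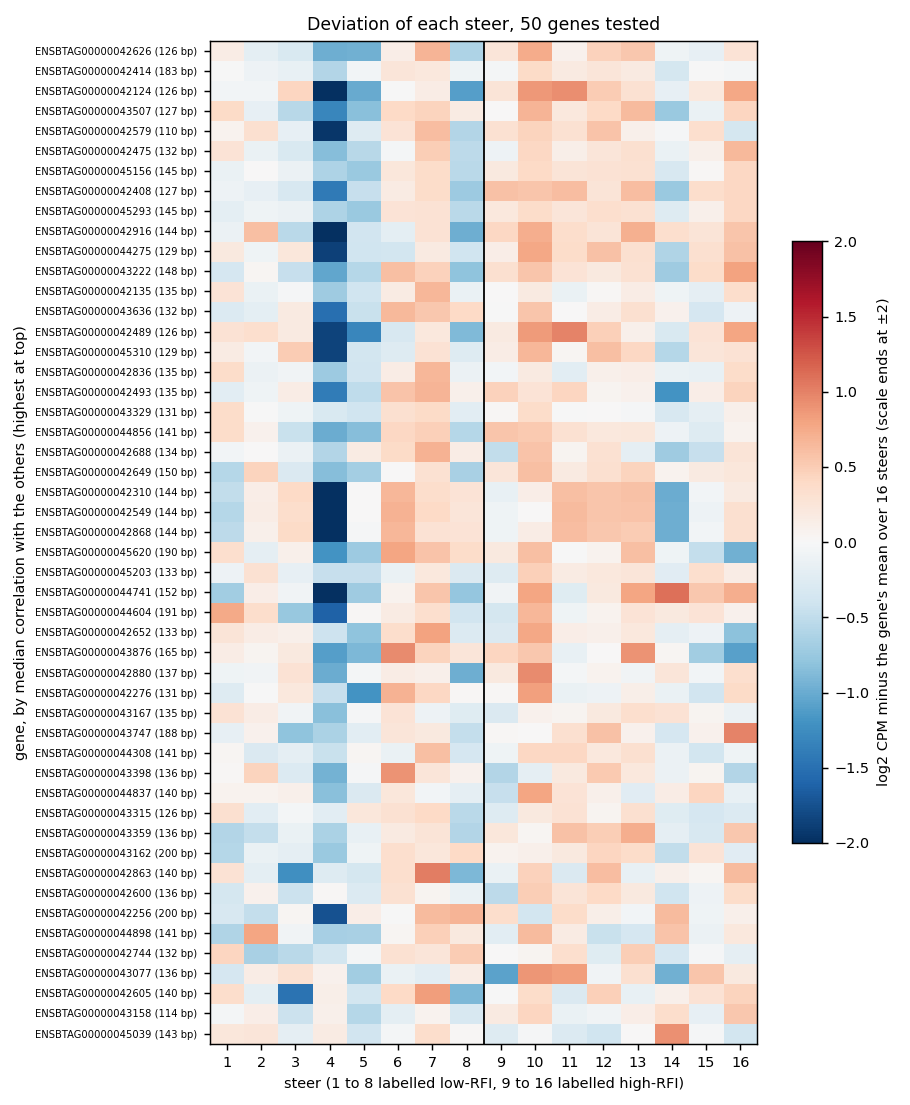
Deviation of each steer from the gene's mean over 16 steers (log2 CPM, red above and blue below, scale ends at ±2) for the 50 members tested, ordered by median correlation with the other members. The column of steer 4 is blue in nearly all rows, with a median of -0.84, and the bottom row, the 143 bp gene, is reddest in steer 14.

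Between the groups, no member passed the threshold on its own. Of the 51 members, 50 entered the quasi-likelihood test of edgeR, the 198 bp gene having too few counts. At FDR 0.05 edgeR called 0 of them, and 0 of all 13265 genes tested, or 0%. The adjusted p of the members ran from 0.926 to 0.999. DESeq2 called 0 members, against 7 of 21016 genes, or 0.0333%.

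Most members nevertheless had the higher mean in high-RFI steers. The edgeR log2 fold change was above 0 in 41 of the 50, or 82%, against 50.6% of all genes tested, and its median was 0.19 against 0.0016. Over the 21 shorter genes of the block that were tested the median was 0.27, so a positive median was not particular to the members. At an unadjusted p under 0.05 there were 12 members higher in high-RFI steers, or 24%, against 2.77% of all genes tested. There were 0 members lower at that level, against 2.45% of all genes. DESeq2 placed 14 of 51 members at that level, all of them higher, against 2.15% of all genes higher and 1.96% lower in the same fit. The 12 members counted once per near-identical set are 11, and as the members move together these counts are not separate pieces of evidence. Without steer 4 there were 10, against 2.36% of all genes in that fit, with 35 of 50 members above 0 against 50.8% of all genes and a median of 0.16. Without steers 4 and 5 there were 7, against 1.81% of all genes in that fit, with 31 of 51 members above 0 against 52.6% of all genes and a median of 0.11.

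By length, the median log2 fold change was 0.41 over the 10 members of 110 to under 130 bp, of which 9 were above 0 and 5 at an unadjusted p under 0.05. It was 0.13 over the 31 of 130 to under 150 bp, with 25 above 0 and 4 at that level. It was 0.13 over the 9 tested of 150 to 200 bp, with 7 above 0 and 3 at that level. All members at that level were higher in high-RFI steers. Over all genes tested, 50.6% were above 0 and 2.77% were higher at that level. The 4 of 130 to under 150 bp include both near-identical genes of 145 bp. The differences between these classes of length were not tested.

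The member with the smallest unadjusted p in edgeR, 0.00810, was ENSBTAG00000043359, of 136 bp, a length with snoRNAs and no snRNA in RefSeq. By exact permutation other members had a smaller p, the smallest 0.00326, unadjusted, among the members tested. Its normalized counts were 34.0, 55.7 and 71.6 in high-RFI steers (lowest, median and highest) and 27.4, 34.3 and 51.4 in low-RFI steers. The 4 highest high-RFI steers exceeded all low-RFI steers, and the groups overlapped otherwise. The log2 fold change was 0.54 ± 0.18 (SE), the edgeR adjusted p 0.926 and the unadjusted p 0.0155 by two-sided exact permutation of the steers on the scale of log2(normalized count + 1).

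ENSBTAG00000042649, of 150 bp, came next, with an unadjusted p of 0.00893 in edgeR. Its normalized counts were 95.3, 108 and 138 in high-RFI steers and 49.9, 67.3 and 124 in low-RFI steers. Here 6 of the 8 low-RFI steers lay below every high-RFI steer. The log2 fold change was 0.51 ± 0.17 (SE), the edgeR adjusted p 0.926 and the exact permutation p, unadjusted, 0.0103.

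The lower members with the smallest edgeR p were far from the threshold. ENSBTAG00000043398, of 136 bp, had 16.1 ± 4.47 normalized counts in high-RFI steers and 18.1 ± 6.86 in low-RFI steers (SD, n = 8 each), with a log2 fold change of -0.18 ± 0.23 (SE) and an adjusted p of 0.999 from edgeR. ENSBTAG00000042688, of 134 bp, had 26.7 ± 8.52 and 29.4 ± 7.84, with a log2 fold change of -0.15 ± 0.20 (SE) and an adjusted p of 0.999 from edgeR. Both differences were smaller than the spread within either group.

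Among the abundant members, the 126 bp gene had normalized counts of 449.6, 607 and 843 in high-RFI steers and 257, 424 and 802 in low-RFI steers. Its log2 fold change was 0.45 ± 0.22 (SE), the edgeR adjusted p 0.948 and the exact permutation p, unadjusted, 0.0413. In 5 low-RFI steers the count was below every high-RFI steer, and steer 7 had 802, near the top of all.

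The 114 bp gene, ENSBTAG00000043158, had normalized counts of 141, 177 and 232 in high-RFI steers and 106, 145 and 172 in low-RFI steers. The log2 fold change was 0.32 ± 0.13 (SE), the edgeR adjusted p 0.937 and the exact permutation p, unadjusted, 0.0317. The 5 highest high-RFI steers exceeded all low-RFI steers. It followed the other members weakly, with a median correlation of 0.118.

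The 188 bp gene, ENSBTAG00000043747, the 1 member whose length RefSeq gives to neither class, had normalized counts of 147, 198 and 373 in high-RFI steers and 106, 162 and 219 in low-RFI steers. Its log2 fold change was 0.45 ± 0.19 (SE), the edgeR adjusted p 0.939 and the exact permutation p, unadjusted, 0.0392. The near-identical genes of 145 bp had log2 fold changes of 0.40 ± 0.15 and 0.36 ± 0.15 (SE), with an adjusted p of 0.926 and 0.941 from edgeR. ENSBTAG00000045293 of this pair had 142, 205 and 229.9 normalized counts in high-RFI steers and 100.4, 152 and 207 in low-RFI steers.

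Other abundant members showed little difference. The 190 bp gene, ENSBTAG00000045620, had 233 ± 77.0 normalized counts in high-RFI steers and 243 ± 97.6 in low-RFI steers (SD, n = 8 each), with a log2 fold change of -0.07 ± 0.26 (SE). The 135 bp gene, ENSBTAG00000042135, had 163 ± 21.1 and 159 ± 46.8, with a log2 fold change of 0.02 ± 0.15 (SE), and of -0.03 when scaled by library totals. ENSBTAG00000042414, of 183 bp, had 121 ± 18.1 and 110.3 ± 18.5, with a log2 fold change of 0.13 ± 0.12 (SE). Their adjusted p was 0.999 each in edgeR, and the differences were within the spread between steers.

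**Figure D5:**
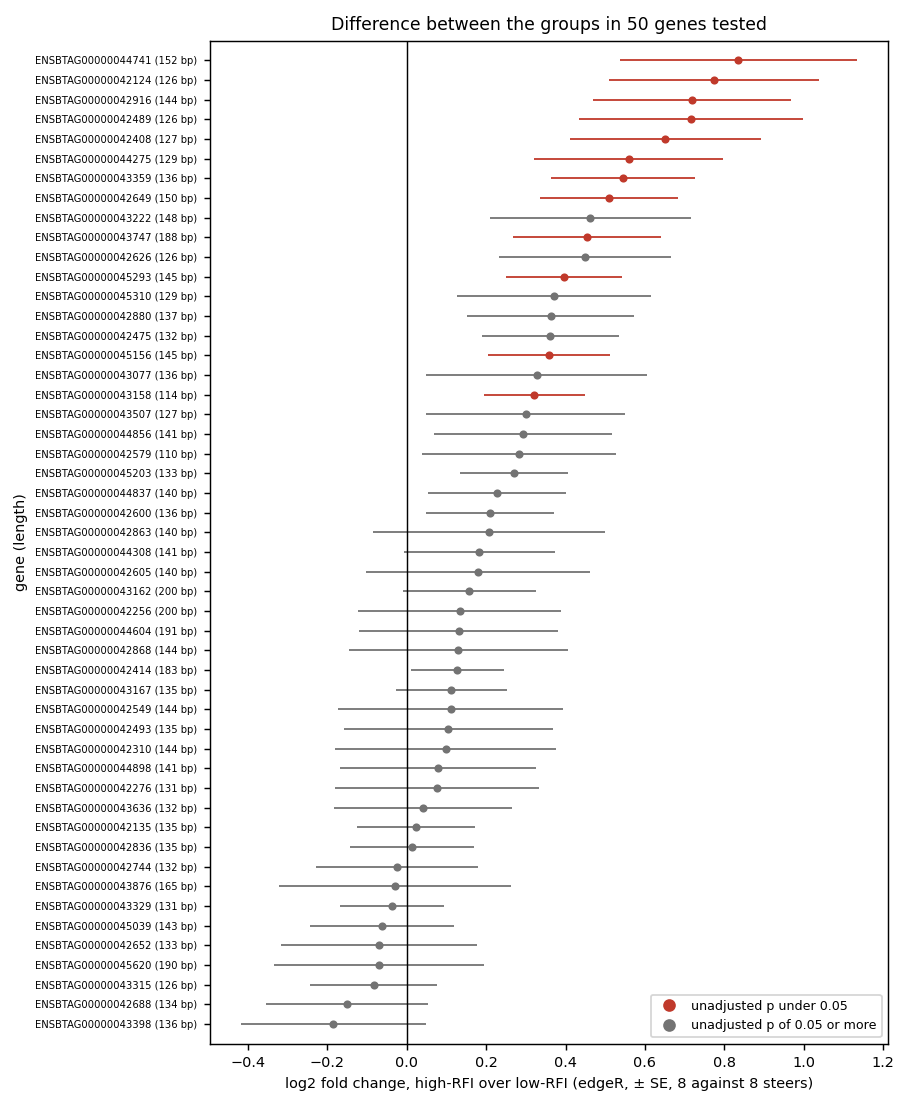
Log2 fold change of high-RFI over low-RFI steers (edgeR, ± SE, 8 against 8 steers) for the 50 members tested, red where the unadjusted p was under 0.05. In 41 of the 50 the point lies right of 0, the 12 red points run from 0.32 to 0.84, and none passed FDR 0.05.

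Members varied more between steers than most genes tested. The median biological coefficient of variation, the spread between steers left after counting error as edgeR estimates it within groups, was 0.229 over the 50 members tested. It was 0.160 over all 13265 genes tested and 0.216 over the shorter genes. Over the 9937 other genes between the lowest and highest mean level of the members, not matched in level within that range, it was 0.167. The value was above the median of all genes in 48 of the 50 members, and ran from 0.132 to 0.392. The highest was that of the 165 bp gene ENSBTAG00000043876, with normalized counts from 20.9 to 89.5. Among the 10 members with a mean of at least 100 counts, the SD of log2 CPM over the 16 steers was largest in the genes of 190 bp at 0.58, 126 bp at 0.52 and 188 bp at 0.45. It was smallest in the genes of 183 bp at 0.24, 114 bp at 0.30 and 135 bp at 0.31.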

How the data were processed

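Whole-blood RNA of 16 steers was sequenced as paired-end reads, 1 library per steer. The authors' methods name Trimmomatic 0.39 for trimming, HISAT2 2.2.1 for alignment (build ARS-UCD1.2), SamTools for marking duplicates and GenomicAlignments for counting. The annotation, strand setting and handling of multiply aligned reads are not given in the sources used here. Deposited were raw counts of the authors, normalized counts (a signal: the counts over 1 size factor per steer) and FPKM, these normalized counts per length. Groups came from the labels, and all columns were mapped to a steer. p-values measure the spread between steers.

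Raw counts of all genes were compared with edgeR 4.0.16 (TMM, filterByExpr, glmQLFit with robust dispersion, quasi-likelihood test, Benjamini-Hochberg over all genes tested) in R 4.3.3, without covariates. Alternatives were DESeq2 1.42.0, other scalings, no filter, limma 3.58.1 on log2(FPKM + 1) and log2(FPKM + 0.1), and leaving out each steer. Single members were compared by two-sided exact permutation over all 12870 assignments of 8 of 16 steers. Members and lists were chosen with earlier results of these data known.

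Named members were the 6 with most normalized counts, 2 per direction by smallest edgeR p, the 3 with the largest and the 3 with the smallest SD of log2 CPM among those with a mean of at least 100 counts, and those at the limits of the rule. Near-identical sets, the pair of 165 and 190 bp, and the genes of 143, 191 and 314 bp were named after their values had been seen. Lists of symbols (snoRNA classes, snRNP proteins, blood cell markers) were not analysed here, since no identifier was paired with a symbol.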

Additional observations from a re-analysis of the deposited data

Results flagged for a closer look

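Among 46 sets of 8 values, 1 gene in 1 group each, 2 had an extreme value whose gap to its neighbour, as a share of the range, passed Dixon's 95% critical value. Chance passes about 1 set in 20 where genes are not chosen by their values. Both genes here were named after their values had been seen, so that rate does not hold for them. ENSBTAG00000045039, of 143 bp, had 87.3 normalized counts in steer 14 (high-RFI), while its neighbour had 45.8, a gap of 0.782 of the range. ENSBTAG00000044275, near-identical in counts to ENSBTAG00000045310, had 3.22 normalized counts in steer 4 (low-RFI), while its neighbour had 10.6, a gap of 0.541 of the range. That value was 2 raw counts, in the steer with the fewest counts on genes. ENSBTAG00000045310 had the same 3.22 in steer 4, with its neighbour at 10.7 and a highest of 20.5 in that group, and was not among the 2.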

How the results depend on the processing

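No member passed FDR 0.05 under any alternative, nor without any 1 steer. Over all genes edgeR called 25 without steer 14, 2 without steer 16 and 0 without any other 1 steer. The number at an unadjusted p under 0.05 was 7 without steers 4 and 5, where 1 more member was tested and 2 fewer steers entered. It was between 9 and 16 without 1 steer and between 10 and 16 under the other alternatives that keep all steers. All of these members were higher in high-RFI steers. Of all genes, those higher at that level ran from 275 of 13263 without steer 8 to 503 of 13272 without steer 6. In the fits of 13265 genes with all steers they ran from 149 with library totals to 377 with limma on log2(FPKM + 1). With library totals 624 genes were lower. With no filter 519 of 21016 were higher. The median log2 fold change of the members ran from 0.16 to 0.28 without 1 steer. With library totals in place of TMM the median of all genes was -0.05 and that of the members was 0.14. The median spread of the members over that of all genes was 1.43, and 1.91 when taken as the SD of log2 CPM, which holds counting error too. With no filter on low counts the medians were close, 0.233 over the members and 0.220 over all 21016 genes. The median pairwise correlation of the 10 members with at least 100 counts ran from 0.456 without steer 4 to 0.703 without steer 16.

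Of the 12 members whose fold change the text gives, 2 with a value near 0 changed sign. ENSBTAG00000042135 became -0.0305 with library totals, -0.12 without steers 4 and 5, and -0.0471 in DESeq2 without steer 4, and without 1 steer it ran from -0.0505 to 0.143, below 0 without steer 4, 5 or 16. ENSBTAG00000045620 ran from -0.183 to 0.0564 without 1 steer, above 0 without steer 6, 7 or 16. The cause was not tested. Alternatives without steers 4 and 5, without steer 4 in DESeq2 and with near-identical genes counted once were chosen after seeing the data. No paired analysis was made, since the groups hold different steers and the sources used here give no pairs. Depth limits the low members most, as 16 of the 51 had fewer than 10 counts in 2 or more steers.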
